A study of Danio rerio with 11 samples.

Results

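The genes described here encode the proteins of the cytosolic ribosome. They were found by name in the deposited tables: every row whose name starts with rpl or rps and a digit, the acidic stalk genes rplp0 to rplp2, and rpsa, leaving out 6 rps6k genes, which encode kinases. The rule gave 81 of the 14473 genes in the tables, 47 of the large subunit and 34 of the small subunit. RNA was sequenced from 11 whole zebrafish embryos, each taken singly, at roughly 25 hours post fertilisation after growth at 29 °C. They were 6 mutants (replicates 1, 3, 4, 5, 6 and 7), labelled as rfx4 mutant, and 5 siblings (replicates 2, 3, 4, 7 and 8), labelled as control. The series design gives an incross of fish heterozygous for the uw8013 allele of rfx4, an RFX transcription factor gene, and a sort of the embryos by appearance. The growth protocol in the labels instead names parents heterozygous at zic2 genes, and which of these applies was not tested. The genotype of each sibling, wild type or heterozygous, is not given in the sources used here.

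The cytosolic ribosome joins a small subunit, which reads the mRNA, to a large subunit, which forms peptide bonds. Each subunit is a body of ribosomal RNA carrying many proteins, mostly present in 1 copy per ribosome, and the mRNAs for these proteins are among the most abundant in growing embryos. In vertebrates most of these mRNAs begin with a run of pyrimidines, the TOP element, through which mTOR signalling and LARP1 set their translation. A shortage of single ribosomal proteins is known in zebrafish and mammals to set off a stress response that halts the cell cycle, in mammals through the binding of Rpl5 and Rpl11 to the ubiquitin ligase Mdm2.

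The libraries held 16238368 to 21104811 counts. Transcripts of rfx4 were at 16.7 to 27.3 TPM (transcripts per 1000000, a level scaled for gene length) in mutants and at 24.8 to 37.6 TPM in siblings, so the groups overlapped (edgeR log2 fold change −0.53 ± 0.14 SE, adjusted p = 0.475). There were 24 whole-embryo marker genes with a row, covering neural tissue, muscle, epidermis, blood, notochord, lens, yolk layer and dividing cells. Of these, 22 passed the filter on low counts. Between the groups edgeR called 0 of the 22, beside 0 of all 12301 tested genes. At an unadjusted p under 0.05 there were 2 of the 22, pcna and myod1, beside 6.85% of all tested genes.

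The libraries of mutant 6 and sibling 4 stood apart from the rest in the genes of 1 chromosome each, so results that rest on them are given with and without them. Each gene's log2 CPM (counts per 1000000 of the scaled library) was set against the median of the other 10 embryos, and the difference is called its deviation. Genes were assigned to chromosomes by name in RefSeq's gene table for zebrafish (assembly GRCz12tu), which is another build than that of the counts and was used only to see which genes neighbour each other. The 401 genes of chromosome 8 outside the ribosomal protein set and with a mean log2 CPM above 3 had a median deviation of −0.99 in mutant 6, which is 50.3% of the level in the other embryos. Of these, 400 lay below 0 and 375 below −0.5. In sibling 4 the 288 such genes of chromosome 11 had a median deviation of −0.25, or 84.4%, with 261 below 0. Over the other 273 pairs of embryo and chromosome the median deviation ran from −0.06 to 0.09. The highest was a smaller shift upward of chromosome 11 in mutant 1 (0.09, or 107%), with 72 of 288 genes below 0. The next highest was 0.042, for chromosome 11 in sibling 3. DNA was not measured, so the number of copies of either chromosome was not tested. Mutant 7 and sibling 3 stood apart in another way, spread over the chromosomes. Of 8498 genes outside the ribosomal protein set, 623 in mutant 7 and 656 in sibling 3 had a deviation below −0.5. Leaving out chromosome 8 in mutant 6 and chromosome 11 in sibling 4, there were 61 to 192 such genes in the other mutants and 54 to 123 in the other siblings.

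Ribosomal protein transcripts made up 20.9% to 25.4% of all TPM, the measure of transcript abundance, in every embryo. The share was 22.0%, 21.6%, 22.9%, 21.8%, 22.7% and 25.4% in mutants 1, 3, 4, 5, 6 and 7. It was 21.1%, 24.5%, 22.5%, 20.9% and 21.2% in siblings 2, 3, 4, 7 and 8. Mutant 7 and sibling 3 were the highest embryos of their groups, and the groups overlapped over most of their range. The 6 mutants averaged 22.7% ± 1.38 (SD) and the 5 siblings 22.0% ± 1.55. The difference of 0.70 percentage points is smaller than either SD, but both SDs are widened by mutant 7 and sibling 3. Without mutant 7 the difference was 0.18 percentage points, and without sibling 3 it was 1.33. Without mutant 6 and sibling 4 it was 0.83, and without mutant 7 and sibling 3 it was 0.80. In that last case mutants ran from 21.6% to 22.9% and siblings from 20.9% to 22.5%, so the groups still overlapped. In mutant 7 and sibling 3, the embryos with the highest share, all 3 tested yolk layer markers were low. The deviation of apobb.1 was −1.98 in mutant 7 and −1.83 in sibling 3, that of apoa1b −0.76 in mutant 7 and −0.45 in sibling 3, and that of apoa1a −0.57 in mutant 7 and −0.28 in sibling 3. Their summed level was 7390 TPM in mutant 7 and 11333 to 13581 TPM in the other mutants, against 8845 TPM in sibling 3 and 12669 to 17031 TPM in the other siblings. The highest sum was that of sibling 7, the embryo with the lowest ribosomal protein share of TPM. By counts its share was not the lowest, at 8.35% beside 8.32% in sibling 2 and 8.23% in sibling 8. The median deviation of the ribosomal protein genes in sibling 7 was −0.01. All 3 markers also lay below 0, with deviations from −0.22 to −0.03, in mutants 3 and 5, whose shares were 21.6% and 21.8%. Mutant 6 and sibling 4 had sums of 13581 and 13599 TPM with shares of 22.7% and 22.5%. The part of these markers, and of the many low genes in mutant 7 and sibling 3, in the share was not tested. Since the ribosomal protein mRNAs are short, the same genes took a smaller share of the counts, 9.03% ± 0.72 in mutants and 8.79% ± 0.78 in siblings. In bulk RNA a different number of cells of a type and a different amount of RNA per cell cannot be told apart.

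Large and small subunit genes varied together from embryo to embryo. Large subunit genes held 13.5% ± 0.83 of TPM in the 6 mutants and 13.2% ± 0.94 in the 5 siblings (SD). Small subunit genes held 9.21% ± 0.56 in mutants and 8.82% ± 0.62 in siblings. The ratio of large to small subunit TPM varied far less than either share, with values of 1.444 to 1.493 among mutants and 1.482 to 1.518 among siblings. It was highest in sibling 4 and lowest in mutant 6. The mean difference in the ratio, mutant minus sibling, was −0.030 with all embryos and −0.020 without those 2. Mutant 1, at 1.493, lay above siblings 2 and 8, and the other mutants lay below all siblings. No test was made on these sums over chosen genes.

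**Figure D1:**
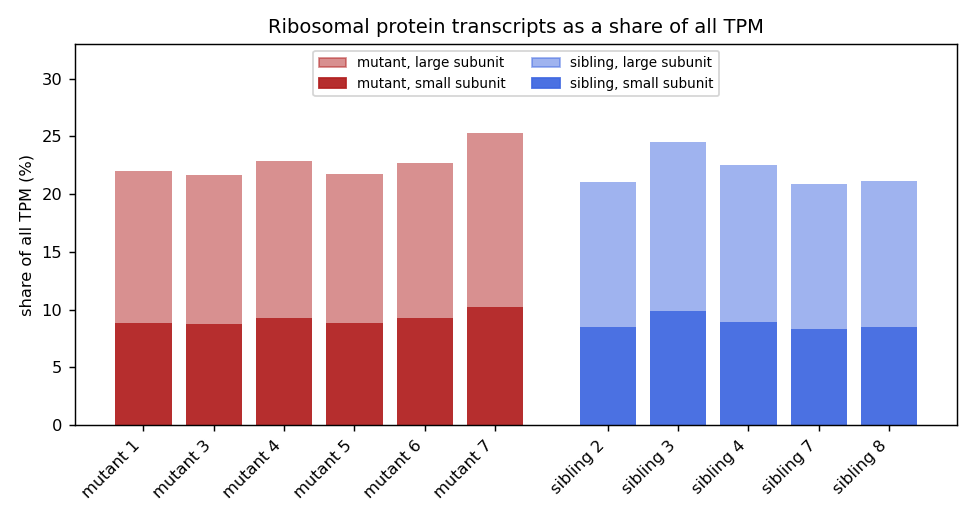
Share of all TPM (percent, y axis) held by the 81 ribosomal protein genes in each embryo (x axis, mutants in red at the left, siblings in blue at the right), with the small subunit as the dark lower part of each bar and the large subunit as the pale upper part. Mutant 7 at 25.4% and sibling 3 at 24.5% are the tallest bars, and the other 9 embryos lie between 20.9% and 22.9%.

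In 7 of the 11 embryos at least 69 of the 81 members lay on the same side of the other embryos, and in the other 4 they were split. Mutant 7 lay above the median of the other 10 embryos for 80 of 81 members, with a median deviation of 0.23, and mutant 4 for 78, with a median deviation of 0.15. Mutant 3 lay below it for 78 members (median deviation −0.12) and mutant 5 for 69 (−0.06). Sibling 3 lay above for all 81 (0.22), and siblings 2 and 8 lay below for 78 and 75 (−0.12 and −0.09). The members were split in mutant 1, with 22 above and 59 below, in mutant 6, with 59 above and 22 below, in sibling 4, with 61 above and 20 below, and in sibling 7, with 37 above and 44 below. The median deviations of the large and small subunit genes differed by at most 0.03 in any embryo, the largest gap being in mutant 3. Of the 81 members, 76 had their highest TPM in mutant 7 or sibling 3. The highest over the lowest TPM of the 11 embryos was under 1.5 for 77 members, and the median coefficient of variation over embryos was 7.38%. The biological coefficient of variation fitted by edgeR within groups had a median of 10.7% over the members and of 13.0% over all 12301 tested genes.

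**Figure D2:**
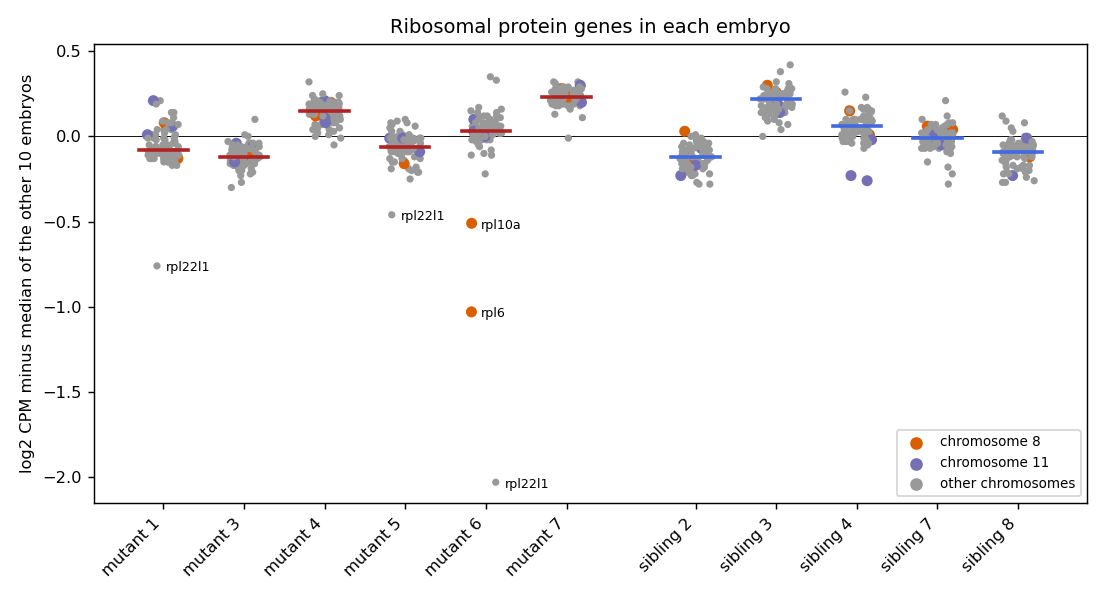
Log2 CPM of each ribosomal protein gene minus the median of the other 10 embryos (y axis), by embryo (x axis, mutants left, siblings right). Each point is 1 gene, bars mark the median over genes in red for mutants and blue for siblings, genes on chromosomes 8 and 11 are orange and purple, and 1 gene of very low counts is left out. Nearly all genes of an embryo sit close to its bar. Below it fall rpl22l1 in mutants 6, 1 and 5, and rpl6 and rpl10a in mutant 6.

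The study set embryos of mutant appearance against their siblings, and no ribosomal protein gene was called in that comparison. All 81 members passed the filter on low counts. With all 11 embryos in the fit, edgeR's quasi-likelihood test called 0 of the 81 members at an adjusted p of 0.05, beside 0 of 12301 genes tested (0% called). The smallest adjusted p of a member was 0.799. At an unadjusted p under 0.05 there were 0 members, beside 843 of all tested genes (6.85%). DESeq2 called 44 genes (0.358%) and limma-voom 2 (0.0163%), and neither called a member. In 0 of 81 members were the groups free of overlap, beside 116 of all tested genes (0.943%), of which 56 were higher (0.455%) and 60 lower (0.488%) in mutants. Without mutant 6 edgeR called 24 genes (0.196%), and again 0 members.

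The fitted differences were small. Large subunit genes had a median log2 fold change of 0.015, with 28 above and 19 below 0, and small subunit genes one of 0.032, with 29 above and 5 below 0. Over all members the median was 0.027, with 57 above and 24 below 0. Over all tested genes the median was 0.0009, with 50.2% above 0. Members vary together from embryo to embryo, so their signs are not independent of each other. The standard error of a member's fold change had a median of 0.08 and ran from 0.06 to 0.41, and 80 of the 81 fold changes were within 0.15 of 0. Without mutant 7 the median over the members was −0.009, and without sibling 3 it was 0.077.

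**Figure D3:**
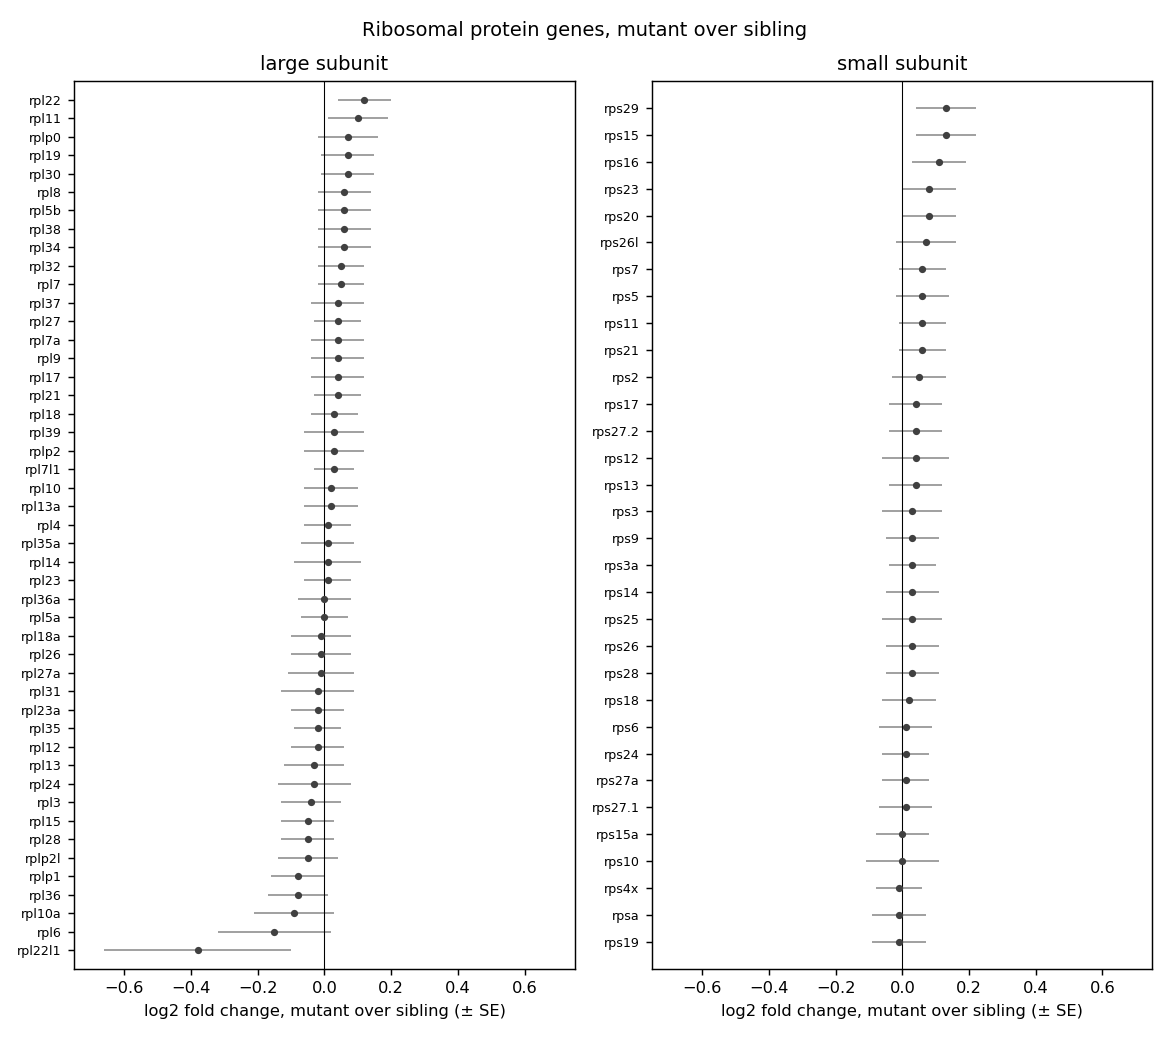
Log2 fold change of mutants over siblings with its standard error (x axis) for the 47 large subunit genes (left) and 32 of the 34 small subunit genes (right), ordered by size (y axis). All points but rpl22l1 at −0.38 lie within 0.15 of 0, and none passed the test.

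The most abundant members stood among the most abundant transcripts of the embryo, with 23 of the 50 genes of highest mean TPM and 59 of the top 100. The median member had 2659 TPM, and 75 of the 81 had between 1000 and 6000 TPM. The highest was rplp1, an acidic protein of the stalk that recruits elongation factors, whose TPM ran from 5672 to 6889 in mutants, with a median of 6134, and was 5706, 7144, 6740, 6247 and 6276 in siblings. Sibling 3 was the highest embryo and mutant 5 the lowest, and the groups overlapped (log2 fold change −0.08 ± 0.08 SE, edgeR adjusted p = 0.883). The other stalk genes were lower. Mean TPM was 3566 ± 321 for rplp0 in mutants and 3335 ± 327 in siblings, and 3601 ± 270 for rplp2l in mutants and 3644 ± 388 in siblings (SD, n = 6 and 5).

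Next in level came rps15a, at 5361 ± 341 TPM in mutants and 5253 ± 452 TPM in siblings (SD, n = 6 and 5), and rps4x, at 5054 ± 247 and 4984 ± 258 TPM in the same groups, both of the small subunit. The large subunit genes rpl26, rpl7a, rpl13 and rpl21 and the small subunit gene rps2, whose protein lies near the mRNA entry channel, completed the 8 highest. Their mean TPM over all embryos was 4635, 4521, 4384, 4217 and 4370. The fold changes of these 7 genes lay between −0.03 and 0.05, each smaller than its standard error.

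Some further members encode proteins at known working sites of the ribosome. Along the exit tunnel, through which the new chain leaves, rpl4 was at 2731 ± 166 TPM in mutants and 2655 ± 142 TPM in siblings (SD, n = 6 and 5), and rpl39 at 3057 ± 350 and 2937 ± 184 TPM in the same groups. The gene rpl10, whose protein joins the large subunit last and lies near the tRNA sites, was at 2098 ± 140 TPM in mutants and 2019 ± 197 TPM in siblings. On the small subunit, rps3 at the mRNA entry was at 2321 ± 152 TPM in mutants and 2231 ± 244 TPM in siblings, and rpsa, related to the laminin receptor, at 4158 ± 259 and 4087 ± 287 TPM in the same groups. In each of these genes the difference was smaller than the SD of either group. Only 5 members had a mean under 1000 TPM, among them rpl22l1 (828), rpl31 (657), rplp2 (581) and rpl7l1 (173).

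The next 4 genes were picked for a known role in disease, signalling or development, and each had a fold change smaller than its standard error. The gene rps19, which is the one most often mutated in human Diamond-Blackfan anaemia, was at 3683 ± 228 TPM in mutants and 3620 ± 292 TPM in siblings (SD, n = 6 and 5). The target of the S6 kinases, rps6, was at 2979 ± 198 TPM in mutants and 2888 ± 244 TPM in siblings. The gene rpl38, which in mice affects the translation of Hox mRNAs, was at 2011 ± 144 TPM in mutants and 1887 ± 138 TPM in siblings. The gene rps27a, which encodes a fusion of ubiquitin with a small subunit protein, was at 2926 ± 153 TPM in mutants and 2853 ± 225 TPM in siblings. The edgeR adjusted p values of these 4 genes lay between 0.913 and 0.989.

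The largest positive fold changes belonged to 3 proteins of the head of the small subunit and 2 of the large subunit. For rps15 the TPM was 1548 to 1924 in mutants, with a median of 1628, and 1397, 1752, 1562, 1510 and 1375 in siblings. Mutants 7 and 1 were high, siblings 2 and 8 were low, and the groups overlapped (log2 fold change 0.13 ± 0.09 SE, edgeR adjusted p = 0.810). For rps29 the TPM was 2162 to 2809 in mutants, with a median of 2455, and 2182, 2487, 2375, 1899 and 2107 in siblings. Sibling 7 was the lowest embryo and mutant 7 the highest, and the groups overlapped (0.13 ± 0.09 SE, edgeR adjusted p = 0.810). For rps16 mean TPM was 2099 ± 120 in mutants and 1906 ± 200 in siblings (0.11 ± 0.08 SE, edgeR adjusted p = 0.821). The large subunit genes were rpl22 and rpl11, which are described below with the embryos that stood apart. The negative end held rpl22l1, rpl6 and rpl10a, also described below, and rplp1 and rpl36. The level of rpl36 was 2333 ± 165 TPM in mutants and 2404 ± 250 TPM in siblings (−0.08 ± 0.09 SE, edgeR adjusted p = 0.895).

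The ribosomal protein genes on chromosome 8, the chromosome that stood apart in mutant 6, included rpl6 and rpl10a. For rpl6, which encodes a large subunit protein, the TPM was 4166, 3859, 3978, 3688 and 4444 in mutants 1, 3, 4, 5 and 7 and 2009 in mutant 6, against 3711, 4573, 4206, 3786 and 3735 in siblings. Mutant 6 lay far below all other embryos, with a deviation of −1.03, and the other mutants lay among the siblings or just below them. The log2 fold change was −0.15 ± 0.17 (SE, edgeR adjusted p = 0.894) with mutant 6 and −0.02 ± 0.09 (adjusted p = 0.984) without it.

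The gene rpl10a encodes the protein of the mobile L1 stalk, near which spent tRNA leaves the ribosome. It had 1563 TPM in mutant 6 and 2050 to 2584 TPM in the other 5 mutants, against 2239, 2496, 2152, 2128 and 2131 TPM in siblings. Its deviation in mutant 6 was −0.51, nearer to 0 than that of rpl6 and of the chromosome's median gene. The fold change was −0.09 ± 0.12 (SE, edgeR adjusted p = 0.913) with mutant 6 and −0.01 ± 0.09 (adjusted p = 0.990) without it.

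On chromosome 11, which stood apart in sibling 4, lay rpl22, rps23 and rps15. The gene rpl22 encodes an RNA-binding large subunit protein that is not needed for translation in mice. It had 2299 to 2605 TPM in mutants, with a median of 2409, and 2222, 2461, 1886, 2090 and 2186 TPM in siblings. Sibling 4 was the lowest embryo, with a deviation of −0.26. The fold change of rpl22 was 0.12 ± 0.08 (SE, edgeR adjusted p = 0.799) with sibling 4 and 0.08 ± 0.07 (adjusted p = 0.928) without it. The gene rps23, whose protein lines the decoding centre, was also lowest in sibling 4, at 1637 TPM, with a deviation of −0.23, and had 1765 to 2210 TPM elsewhere. The deviation of rps15 in sibling 4 was −0.02, so the members on this chromosome were not all low. In mutant 1, where the other genes of chromosome 11 had a median deviation of 0.09, rps15, rpl22 and rps23 had deviations of 0.21, 0.06 and 0.01.

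**Figure D4:**
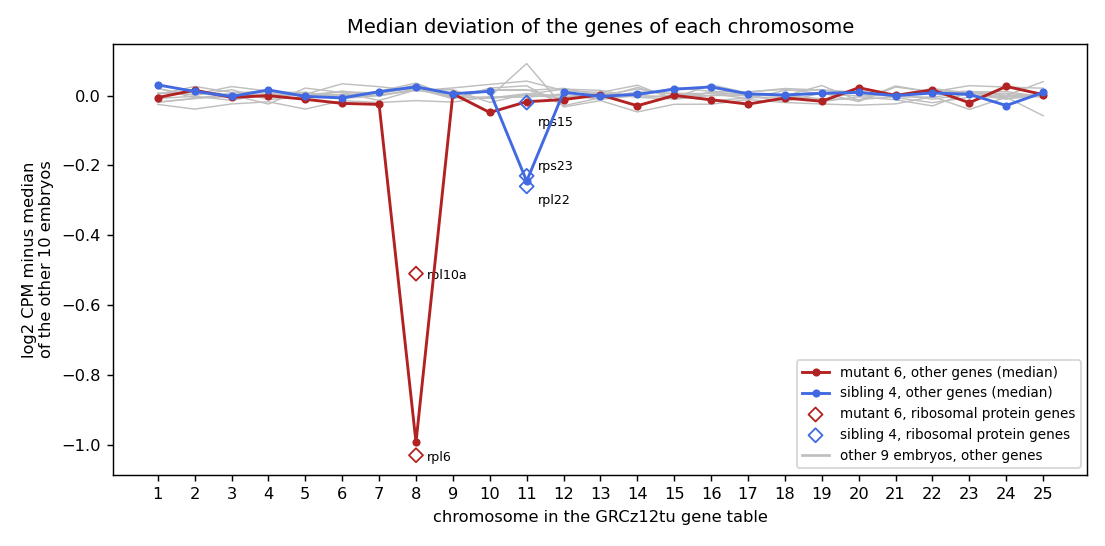
Median deviation in log2 CPM from the other 10 embryos (y axis) over the genes of each chromosome other than ribosomal protein genes (x axis), with mutant 6 in red, sibling 4 in blue and the other 9 embryos in grey. Open diamonds are ribosomal protein genes, of which rpl6 at −1.03 and rpl10a at −0.51 belong to mutant 6 and rpl22, rps23 and rps15 at −0.26, −0.23 and −0.02 to sibling 4.

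Mutant 6 also held the lowest value of 2 members and the highest of 3 members on other chromosomes. It was the lowest embryo for rpl22l1 and for rpl3, which encodes a protein near the peptidyl transferase centre (deviation −0.22). It was the highest for rpl11, rpl5a and rpl19. For rpl11 mutant 6 had 3153 TPM and the other mutants 2350 to 2719, against 2290, 2561, 2567, 2134 and 2404 TPM in siblings. The fold change of rpl11 was 0.10 ± 0.09 (SE, edgeR adjusted p = 0.852) with mutant 6 and 0.04 ± 0.07 (adjusted p = 0.943) without it. For rpl19 mutant 6 had 3931 TPM and the other mutants 3018 to 3272, against 2872 to 3351 TPM in siblings. The deviation of rpl5a in mutant 6 was small, at 0.15 beside 0.35 for rpl11 and 0.33 for rpl19.

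The widest variation among the well-expressed members was that of rpl22l1, a paralog of rpl22 whose mRNA is repressed by Rpl22 protein in mice. Its TPM was 583, 827, 1050, 715, 234 and 993 in mutants 1, 3, 4, 5, 6 and 7, against 843, 985, 960, 969 and 953 in siblings. The siblings were close together, mutants 6, 1, 5 and 3 lay below all of them, and mutants 4 and 7 lay above all of them. The 6 mutants averaged 734 ± 300 TPM (SD) and the 5 siblings 942 ± 56.6 TPM. The log2 fold change was −0.38 ± 0.28 (SE, edgeR adjusted p = 0.819) with mutant 6 and −0.20 ± 0.15 (adjusted p = 0.858) without it. With the replicate number as a block it was −0.06, and with limma-voom or without mutant 4 it was −0.53. This gene lies on chromosome 24, whose other genes had a median deviation within the range of −0.06 to 0.09 in every embryo.

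Of the 6 pairs of related genes described here, the rpl22 pair varied most in percentage points, mainly among mutants, and the other 5 varied less. For minor copies a few points are a larger part of the share. The share of rpl7l1 ran from 4.87% to 6.26% and that of rplp2 from 12.3% to 15.4%. Near-identical copies can exchange reads in RSEM's estimate, which limits these values. The share of rpl22l1 in the summed TPM of rpl22 and rpl22l1 averaged 22.7% ± 7.71 over the 6 mutants and 30.4% ± 2.47 over the 5 siblings (SD). It was lowest in mutant 6, at 8.75%, and highest in sibling 4, at 33.7%, where rpl22 was at its lowest. Without mutant 6 the mutant mean was 25.5% ± 3.98 (SD, n = 5), and without sibling 4 the sibling mean was 29.5% ± 1.86 (SD, n = 4). The copies rpl5a and rpl5b, whose protein carries the 5S ribosomal RNA together with Rpl11, were nearly equal, with rpl5b at 50.8% ± 1.03 of the pair in mutants and 49.8% ± 0.39 in siblings. For rps27.1 and rps27.2 the share of rps27.2 was 49.5% ± 1.99 in mutants and 49.0% ± 1.12 in siblings. The share of rps26l beside rps26 was 56.8% ± 2.09 in mutants and 56.2% ± 1.56 in siblings. Other pairs were unequal. The stalk gene rplp2 gave 14.1% ± 0.96 of its pair with rplp2l in mutants and 13.5% ± 0.79 in siblings. The gene rpl7l1, a relative of rpl7, gave 5.51% ± 0.61 in mutants and 5.55% ± 0.32 in siblings. Letters at the end of other names, as in rpl7a, rpl10a, rpl13a or rps15a, mark different proteins and not copies.

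Other genes of the translation machinery showed no call between the groups either. Of 3 further genes for ribosomal or ribosome-bound proteins, faua, faub and gnb2l1, 2 had fold changes above 0 and 1 below, with a median of 0.02, and 0 were called. The genes of lowest p were faub (0.20 ± 0.18 SE), which encodes a ubiquitin-like protein fused to Rps30, and gnb2l1 (0.02 ± 0.08 SE), which encodes the small subunit scaffold protein Rack1. Of 31 tested elongation factor genes and other genes with TOP mRNAs, 17 were above and 14 below 0 (median 0.02, 0 called), with eef2a.1 at 0.17 ± 0.08 SE and the RNA-binding protein gene hnrnpa1b at −0.13 ± 0.06 SE. Of 12 tested genes for initiation factors and the mTOR pathway, 7 were above and 5 below 0 (median 0.05, 0 called). The cap-binding protein gene eif4e1c was at 0.27 ± 0.10 SE and tsc1a, an inhibitor of mTOR, at 0.12 ± 0.07 SE.

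Of 52 tested genes for ribosome assembly, rRNA synthesis and Myc factors, 44 were above and 8 below 0, with a median of 0.08, and 0 were called (5 had an unadjusted p under 0.05, beside 6.85% of all tested genes). Over all tested genes 50.2% were above 0. The list varied together by embryo, so the signs are not independent. In mutant 1, 45 of the 52 lay above the median of the other embryos, and in sibling 2 only 2 did. Without mutant 6 the median fold change was 0.06. The members of lowest p were mycb, a Myc factor gene (0.40 ± 0.11 SE, edgeR adjusted p = 0.540), and wdr43, which encodes a factor of small subunit assembly (0.18 ± 0.06 SE, edgeR adjusted p = 0.634). Both were highest in mutant 6. Without it the fold changes of mycb and wdr43 were 0.33 and 0.15, and with the replicate number as a block they were 0.16 and 0.10. In the embryos with a high share of ribosomal protein transcripts the genes of this list were not uniformly high. Mutant 7, mutant 4 and sibling 3 had median deviations of 0.05, −0.14 and 0.06 in this list, and mutant 3, with a low ribosomal protein share, had 0.12.

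Several genes of the cell cycle arrest and cell death response to stress differed strongly between embryos, and none was called between the groups. Of 15 tested genes of this kind, 13 had fold changes above 0 and 2 below, with a median of 0.67, and 0 were called. Without mutant 6 the median was 0.12 and again 0 were called, and without mutant 6 and sibling 4 it was 0.25. The median deviation of this list was 2.20 in mutant 6, 0.43 in mutant 1 and 0.23 in mutant 5, and from −0.14 to −0.02 in mutants 3, 4 and 7. In siblings it was 0.53 in sibling 4 and from −0.22 to 0.05 in the others. Mutant 6 had the highest value of 12 of the 15 genes. Some genes of the list moved little. Deviations in mutant 6 were 0.02 for gadd45ab, 0.33 for sesn1, 0.39 for tp53inp1 and −0.16 for btg2.

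The cell cycle inhibitor gene cdkn1a was at 30.5, 12.0, 8.41, 20.1, 124 and 13.1 TPM in mutants 1, 3, 4, 5, 6 and 7, against 9.45, 9.32, 24.4, 10.5 and 8.26 TPM in siblings. Mutants 6 and 1, sibling 4 and mutant 5 were the 4 highest embryos, and the groups overlapped (log2 fold change 1.44 ± 0.65 SE, edgeR adjusted p = 0.721; 0.41 without mutant 6). The caspase gene casp8 was at 16.1, 9.03, 7.88, 11.8, 93.3 and 7.55 TPM in the same mutants, against 8.17, 7.25, 14.8, 8.73 and 6.99 TPM in siblings (1.36 ± 0.65 SE, edgeR adjusted p = 0.743; 0.15 without mutant 6). The same 4 embryos were the highest again, as they were for ccng1, a cyclin gene, with 2526, 1082 and 915 TPM in mutants 6, 1 and 5 and 918 TPM in sibling 4. For mdm2, TPM was 332 in mutant 6, 105 in mutant 1, 111 in mutant 5 and 39.5 to 70.2 in the other mutants, against 104 in sibling 4 and 40.8 to 58.2 in the other siblings.

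Set beside the ribosomal protein genes, the embryos with high stress response genes were mutant 6, where rpl6, rpl10a and rpl22l1 were low, mutants 1 and 5, where rpl22l1 was low, and sibling 4, where rpl22 and rps23 were lowest and rpl22l1, at 960 TPM, lay among the other siblings. Mutant 3 did not show this pairing. Its rpl22l1 level of 827 TPM was also below all siblings, while its stress response genes had a median deviation of −0.02. Most members had their lowest TPM in embryos without high stress response genes. Siblings 7, 8 and 2 held the lowest TPM of 26, 24 and 10 members. Their stress response genes had median deviations of 0.05, −0.22 and −0.16. Mutants 6, 1 and 5 and sibling 4 held the lowest TPM of 4, 4, 6 and 3 members. Mutant 6 and sibling 4 were also the embryos in which 1 chromosome was low as a whole. The low genes rpl6 and rpl10a lie on chromosome 8, where 400 of 401 other genes were below 0 in mutant 6. On chromosome 11, with rpl22 and rps23, 261 of 288 other genes were below 0 in sibling 4. In mutants 1 and 5 no chromosome was low in this way. Blood markers were low in mutant 6 too, with deviations of −1.33 for gata1a, −1.49 for hbbe1.1 and −1.53 for hbae3. For the same genes the deviations were −0.94, −0.45 and −0.22 in sibling 4 and −0.34, −0.22 and −0.16 in mutant 1. In mutant 5 they were above 0, at 0.24, 0.11 and 0.17. Of these genes gata1a lies on chromosome 11, which was low as a whole in sibling 4, and hbbe1.1 and hbae3 lie on chromosome 3. All 3 blood markers also lay below 0 in mutant 3 and sibling 3, whose stress response genes were not high. The share of all TPM taken by ribosomal protein genes was near the middle in mutants 6, 1 and 5 and sibling 4, at 22.7%, 22.0%, 21.8% and 22.5%. Whether any of these values leads to another was not tested.

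**Figure D5:**
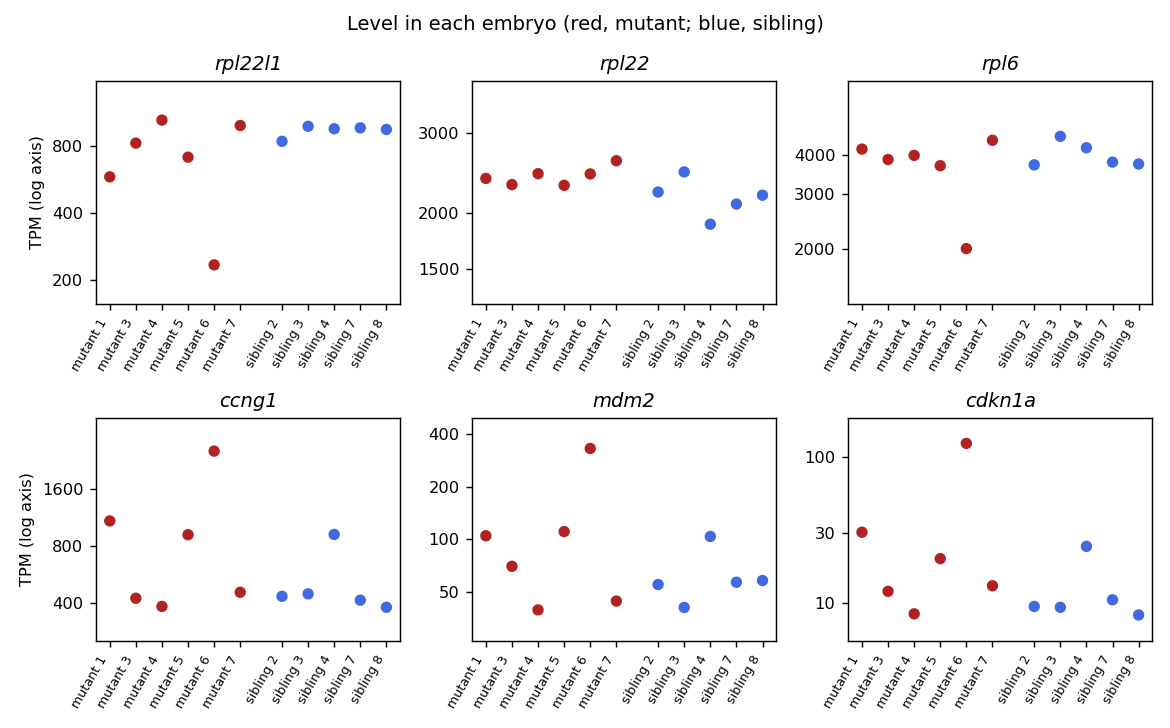
TPM (y axis, log scale) of rpl22l1, rpl22, rpl6, ccng1, mdm2 and cdkn1a in each embryo (x axis, mutants in red at the left, siblings in blue at the right). Mutant 6 is lowest for rpl22l1 (234 TPM) and rpl6 (2009 TPM) and highest for ccng1 (2526 TPM), mdm2 (332 TPM) and cdkn1a (124 TPM), and sibling 4 is lowest for rpl22 (1886 TPM).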

How the data were processed

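Libraries of single-embryo RNA were made with an Illumina TruSeq kit, per the labels' protocols, whose use of strand is not stated. The authors deposited 1 table of whole-number counts, taken here as estimated counts of RSEM, and 1 table of TPM, scaled for gene length by the authors, with 1 column per embryo. The submitters' processing notes list the build Zv9, RSEM 1.2.18, Bowtie 1.1.1 and CASAVA 1.8.2, without their roles or an annotation. Each library came from 1 embryo, so the spread includes biological variation. Over the 25 pairs of embryos of the same group, chi-square over its degrees of freedom was at least 7.99, so no pair agreed within sampling noise.

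Counts were tested with edgeR 4.0.16 in R 4.3.3 (quasi-likelihood, TMM, filterByExpr, Benjamini-Hochberg at 0.05) over 12301 of 14473 genes. Standard errors came from the F statistic. The test was checked on simulated counts, with each gene drawn independently, for the calling of large changes and their sign. That check lacks the shifts that members share and does not bear on changes as small as theirs. Alternatives used DESeq2 1.42.0 and limma 3.58.1, other scalings and filters, TPM with pseudocounts of 1 and 0.1, and embryos left out. Log2 CPM used a prior count of 1. The members, gene lists and tests were chosen with earlier results of these data known. Named members were those called or free of overlap between the groups (0 in each case), the 8 of highest TPM, the 5 of largest change in each direction and their duplicates, with the 2 genes of lowest p in each list without a call. Others were named for their role, their chromosome or their values after these were seen. Results for some of the genes are not reported here. All 81 members had a chromosome in the GRCz12tu table, 1 through a synonym.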

Additional observations from a re-analysis of the deposited data

Results flagged for a closer look

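Values were looked for that lay far from the rest of their group, by the gap to the nearest embryo over the range of the group. This was done for 44 sets of 6 mutants or 5 siblings, 9 of which held such a value. Chance alone gives about 1 such set in 20 where the sets are independent and unselected. Some of these genes were picked for the size of their fold change, and the members vary together. The number found can therefore not be set against that rate.

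Mutant 7 lay above the other mutants in the share of TPM held by ribosomal protein genes (25.4%, others 21.6% to 22.9%), in the large subunit share (15.1%, others 12.9% to 13.6%) and in the small subunit share (10.2%, others 8.74% to 9.30%). These 3 values come from the same library and overlap. It was also apart for rpl36 (2664 TPM, others 2231 to 2311) and rps2 (5070 TPM, others 4153 to 4473). Sibling 3 lay above the other siblings for rpl26 (5378 TPM, others 4230 to 4549) and rps2 (4789 TPM, others 4037 to 4196). Mutant 6 lay below the other mutants for rpl6 (2009 TPM, others 3688 to 4444). Sibling 2 lay below the other siblings for rpl22l1 (843 TPM, others 953 to 985).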

How the results depend on the processing

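No alternative called a member: the smallest adjusted p of a member over 22 alternatives was 0.583, for rpl22 without mutant 7 and sibling 3. The number of genes called, 0 by edgeR over all embryos, was 44 with DESeq2, 2 with limma-voom and 16 without mutant 6 and sibling 4, and ran from 0 to 24 when 1 embryo was left out, with 24 without mutant 6 and 1 without sibling 7. The median fold change of the members ran from −0.009 without mutant 7 to 0.077 without sibling 3. For the same embryos the large subunit median ran from −0.017 to 0.059 and the small subunit median from −0.0023 to 0.088. The difference in TPM share ran from 0.18 to 1.33 percentage points. Some fold changes near 0 changed sign, with the cause not tested: rpl13 was at 0.0041 with TPM at either pseudocount and at 0.00019 without mutant 6 and sibling 4 (−0.07 to 0.03 leaving out 1 embryo), rpl26 at 0.02 with total counts and 0.03 with TPM and without mutant 7 and sibling 3 (−0.04 to 0.06), rps4x at 0.02 with total counts and TPM and 0.0059 without mutant 6 and sibling 4 (−0.04 to 0.02), rpl6 at 0.0019 without those embryos, and, leaving out 1 embryo, rps15a between −0.03 and 0.04 and gnb2l1 between −0.0097 and 0.06. Leaving out embryos in pairs, and the members of chromosomes 8 and 11, was chosen after seeing the data.

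Replicate numbers 3, 4 and 7 occur in both groups, but same-numbered embryos did not deviate together (r = −0.308, −0.195 and −0.144), and none of the 3 mutants correlated best with the sibling of its own number. With the replicate number as a block, 0 genes and 0 members were called. The median fold change was 0.014 over the members, −0.013 over the large subunit and 0.033 over the small subunit. In the same fit rpl10a was at 0.02, rpl22l1 at −0.06, cdkn1a at −0.31 and casp8 at −0.31. That fit rests on 3 pairs, which do not include mutant 6. Every member described by name had at least 1408 counts in each library.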

Other observations

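Nuclear genes for mitochondrial ribosomal proteins followed the cytosolic ones in some embryos and not in others. Of 60 such genes tested, 25 had fold changes above 0 and 35 below, with a median of −0.01, and 0 were called. The members of lowest p were mrpl9 (0.17 ± 0.08 SE) and mrps23 (0.11 ± 0.06 SE). Mutant 1 lay above the median of the other embryos for 57 of the 60, with a median deviation of 0.11, although 59 of the 81 cytosolic members were low in it. Mutant 4, with 78 of 81 cytosolic members high, had 16 of 60 mitochondrial genes high. Sibling 3 had 55 of 60 high, with a median deviation of 0.20, and was high for the cytosolic genes too. Mutant 7 was high in both as well, with 42 of 60 mitochondrial genes high. Siblings 8 and 2 and mutant 3 were low in both, with 4, 16 and 21 of 60 mitochondrial genes high.

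Further genes of translation lay on the chromosomes that stood apart. In mutant 6 the deviations of mtor, the kinase of the mTOR pathway, and of the mitochondrial ribosomal protein genes mrps27, mrps25 and mrpl40, all on chromosome 8, were −1.0, −0.99, −0.89 and −0.74. In sibling 4 the chromosome 11 genes mrpl45 and rrp9, an rRNA processing factor gene, had deviations of −0.27 and −0.25, and hnrnpa1a, on the same chromosome, had 0.06.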
